A study of Mus musculus with 6 samples.

Results

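The 10 genes described here are members of the Sox family of transcription factors that act in glial cells and their progenitors: Sox8, Sox9 and Sox10 of the SoxE group, Sox5, Sox6 and Sox13 of the SoxD group, Sox4 and Sox11 of the SoxC group, and Sox2 and Sox3 of the SoxB group. They were taken by name from a table of 35275 gene identifiers, and all 10 had enough reads to be tested. Their expression was measured by RNA sequencing of the forebrains of 6 C57BL/6 mice at postnatal day 9. In the conditional knockout group (cKO, 3 mice, genotype Pdgfra-CreER:Parp1fl/fl) tamoxifen activated a recombinase placed under Pdgfra, a gene of oligodendrocyte precursor cells that fibroblasts also express, to delete Parp1, which encodes a poly(ADP-ribose) polymerase. The control group (3 littermates, Parp1fl/fl without the recombinase) carried the same floxed alleles, and mice of both groups were injected with tamoxifen once a day from postnatal day 1 to 3. The mice were of both sexes, with no sex given for each. Controls carried no recombinase, so its presence and the deletion cannot be told apart. The comparison asks which Sox genes were at another level in forebrain after deletion of Parp1 in Pdgfra-expressing cells.

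Sox proteins bind DNA through a shared HMG box that bends the minor groove, and the groups are defined by the similarity of that box. Sox10 is kept through the oligodendrocyte lineage, where it is needed for terminal differentiation and acts with Myrf and Olig2 on myelin genes. Sox8 overlaps with Sox10 in these cells, and Sox9 acts earlier in gliogenesis and persists in astrocytes. Sox5 and Sox6 lack a transactivation domain and hold back differentiation of precursors by competing with SoxE proteins. Sox4 and Sox11 are active in immature neurons and early precursors, and Sox2 and Sox3 in neural progenitors and precursor cells. Apart from Sox10, these genes are also expressed in other cells of the forebrain.

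Total counts ran from 17262042 to 29310193 per library, and every pair of libraries differed beyond counting error (chi-square per degree of freedom from 4.36 to 24.3). Each library was taken as 1 mouse, which this difference alone cannot show. Parp1 itself was at 80.75, 79.67 and 79.1 CPM (the count scaled to the size of the library) in cKO replicates 1, 2 and 3 and at 90.77, 97.3 and 85.64 CPM in the controls in the same order. The groups did not overlap, and Parp1 was not called (log2 fold change -0.19, adjusted p by edgeR 0.572). The count covers all forebrain cells and so does not measure deletion within the lineage. Control replicate 3 stood apart on the first principal component, at 43.5 against -16.2 to -3.62 in the other libraries. Its striatal genes were lower (mean log2 level -1.40 relative to all libraries) and its thalamic genes higher (0.97). Its hypothalamic genes were also higher (1.04, against -0.69 to 0.36 in the other libraries). Y-linked Ddx3y was at 64.9 CPM in control replicate 1 and at most 0.05 CPM in the others. Oligodendrocyte markers were present in every library: the summed level of the 11 precursor markers found in the table was 1102 to 1149 CPM in controls and 755.6 to 910.3 CPM in cKO. Foxd3, a defining gene of the neural crest, which also expresses Sox10, was at most 0.046 CPM in any library.

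The SoxE factors recognise variants of a short A-rich core, and its letters were looked for around the starts of the genes. The motifs AACAAT and AACAAAG were searched on both strands of windows from 250 bases before to 50 bases after each start in RefSeq (GRCm38.p6). A window was held for 7 of the 10 Sox genes and for 16 of 22 oligodendroglial genes listed as targets of Sox10. Either motif occurred in 15.7% of all 32851 windows, in 10.1% of windows of tested genes and in 5 of the 22 windows of the listed targets. No window was held for Sox10, Sox9 or Sox3, so their starts were not searched. Among the Sox genes searched only Sox6 held one, in 4 of the 12 windows found for these genes. Several of the 12 windows are those of Sox6. Of the 5 targets called lower that had a window, 2 held either motif, Cnp and Olig2. Mobp, Aspa and Gjb1 also held one and were not called by edgeR (log2 fold changes -0.65, 0.02 and -0.05). The letters were thus found in targets that fell and in targets that did not. The stretches below are those of Cnp and Olig2, the listed targets that both fell in cKO and held the letters, and of Sox6. Sox6, shown at its outermost start, is the Sox gene that held them. Each is written 5′ to 3′ on the strand of the gene with the motif in capitals (ATTGTT is AACAAT read from the other strand), at chr11:100574760-100574789 (+), chr16:91225471-91225500 (+) and chr7:116038840-116038869 (-).
Cnp: aacttttaaggAACAAAGaggtggcgtggc
Olig2: caggaaaagcacATTGTTcccgccccccgc
Sox6: tttttttcaggAACAAAGggaatgtggaaa
Counted from the start of the gene, the motif begins at position -168 in Cnp, -67 in Olig2 and -114 in Sox6. A match of these letters describes the sequence and does not show binding.

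Across the 10 genes, Sox10 was lower in cKO and passed the test, and the other 9 did not pass. All 10 had a negative log2 fold change, with a median of -0.22 against 0.00 over all tested genes. Of 16938 tested genes, 35 fell (0.207%) and 10 rose (0.059%), together 0.266%. The cKO and control ranges did not overlap for 6 Sox genes, all lower in cKO (Sox10, Sox8, Sox6, Sox4, Sox2 and Sox3), where 5.86% of all tested genes were lower and 6.08% higher without overlap. These 6 were also the Sox genes with an unadjusted p under 0.05, which 6.27% of all tested genes had, and 2.75% had with a lower level in cKO. The 10 genes were chosen with earlier results of these data known, so these counts describe them and carry no test of their own. A bulk sample cannot tell fewer cells of a type from less RNA per cell.

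**Figure D1:**
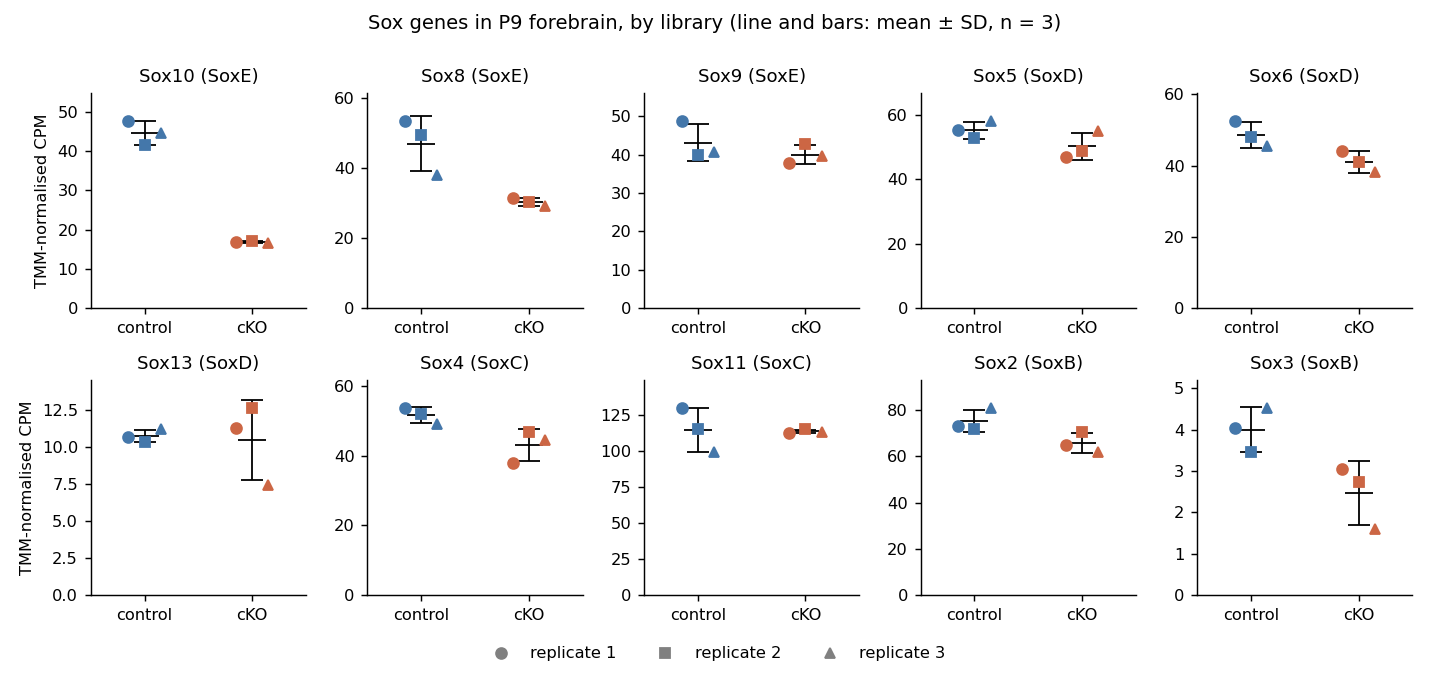
Level of each Sox gene in each library in TMM-normalised CPM (vertical axes start at 0 and differ between panels), with control in blue, cKO in orange, a marker shape for each replicate number, and the mean ± SD of 3 mice in black. The cKO libraries lie at 16.5 to 17.1 CPM for Sox10, far below the controls, while the groups overlap for Sox9, Sox5, Sox13 and Sox11.

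Sox10 (ENSMUSG00000033006, chromosome 15, 79154908 to 79165240 on the minus strand in mm10), the factor of oligodendrocyte maturation, fell. It was at 47.6, 41.7 and 44.8 CPM in control replicates 1, 2 and 3 and at 16.8, 17.1 and 16.5 CPM in cKO replicates 1, 2 and 3. Every cKO library was below the lowest control, and the cKO libraries lay within 1 CPM of each other. The means were 44.7 ± 2.98 CPM in controls and 16.8 ± 0.301 CPM in cKO (SD, n = 3 mice each), a 2.66-fold difference. This was a log2 fold change of -1.41 (SE 0.082, 95% confidence interval -1.59 to -1.23, edgeR adjusted p = 3.06e-06). By unadjusted p it ranked 3 among all 16938 tested genes, and by size of the fall 36. The raw counts behind it were 825, 906 and 981 reads in controls and 340, 424 and 475 in cKO. It passed in each of 18 alternative fits, with log2 fold changes from -1.46 to -1.28. Its exons overlap no other annotated gene, and neither neighbouring coding gene was called: Polr2f, which encodes a subunit of RNA polymerases and lies 3.1 kb away, had -0.09 (adjusted p = 0.898) and Pick1, a synaptic scaffold gene 63.9 kb away, -0.02 (adjusted p = 0.971).

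Sox8 (ENSMUSG00000024176, chromosome 17, 25565892 to 25570686, minus strand), the closest partner of Sox10 in oligodendrocytes, was lower by less and missed the threshold. Its levels were 53.3, 49.4 and 38.1 CPM in control replicates 1, 2 and 3 and 31.5, 30.4 and 29.2 CPM in cKO replicates 1, 2 and 3. The groups did not overlap, and control replicate 3, the library that stood apart by region, was the lowest control. Its log2 fold change of -0.63 had an SE of 0.111 (95% confidence interval -0.87 to -0.38, edgeR adjusted p = 0.0501). Without control replicate 3 it was -0.76 and passed (adjusted p = 4.30e-05), whereas leaving out each of the remaining libraries gave adjusted p-values from 0.175 to 0.282. DESeq2 (adjusted p = 1.11e-04) and limma-voom with quality weights (0.00229) called it. At its 5′ end, 329 bases of its exons overlap 2810468N07Rik, an antisense transcript on the opposite strand, which had 209 to 365 counts per library and a log2 fold change of -0.30 (adjusted p = 0.845). The strand setting of the counting is not given in the sources used here, so reads of this stretch may belong to either gene. Lmf1, a coding gene 8.4 kb away, was at 0.09 (adjusted p = 0.92).

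Sox9 (ENSMUSG00000000567, chromosome 11, 112782224 to 112787760, plus strand), the SoxE gene that astrocytes keep, was not called. It was at 48.7, 40 and 40.8 CPM in control replicates 1, 2 and 3 and at 37.8, 42.7 and 39.7 CPM in cKO replicates 1, 2 and 3. The groups overlapped, with control replicate 1 the highest library. A log2 fold change of -0.11 was fitted (95% confidence interval -0.30 to 0.09, edgeR adjusted p = 0.885), and it was -0.01 without control replicate 1. The interval leaves out a fall of the size seen for Sox10. The 18 astrocyte genes listed, among them Aqp4, the water channel of astrocyte endfeet, at -0.13 and Apoe, the main brain apolipoprotein, at 0.12, held 0 called genes and a median of 0.05, and none of them had an unadjusted p under 0.05 by edgeR.

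The SoxE genes together were lower in cKO, and their proportions differed. On the per-length scale of the deposited FPKM (fragments per kilobase of gene, scaled to library total), the sum of the 3 genes was 47.3, 41.9 and 38.7 FPKM in the controls and 26.3, 26.6 and 24.9 FPKM in cKO, in the order of replicate numbers. All cKO sums lay below all control sums, the mean being 39.1% lower (exact two-sided permutation p = 0.1). Sox10 made up 61.8% of that difference in mean FPKM, Sox8 33.4% and Sox9 4.75%. The share of Sox10 in the sum was 38.8% ± 2.95 in controls and 23.8% ± 0.206 in cKO, and that of Sox9 was 24.5% ± 1.06 and 37.2% ± 1.67 (SD, n = 3 mice each; exact two-sided permutation p = 0.1 for either share, the smallest that 3 against 3 can give). The share of Sox8 was 36.6% ± 3.72 in controls and 38.9% ± 1.54 in cKO, with overlapping values (exact permutation p = 0.4). In control libraries Sox10 and Sox8 were thus at similar levels and Sox9 lowest of the 3, and in every cKO library Sox10 was the lowest.

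**Figure D2:**
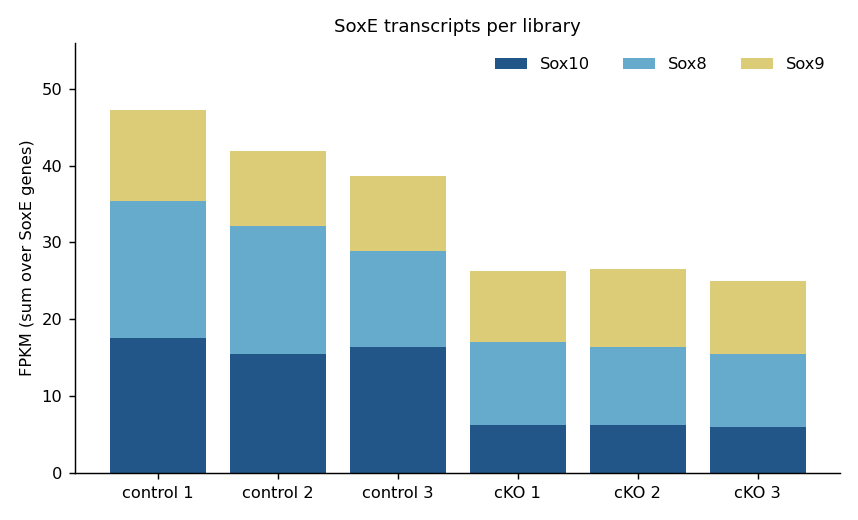
Stacked FPKM of Sox10, Sox8 and Sox9 in each of the 6 libraries, 1 bar per library. The Sox10 segment spans 15.5 to 17.6 FPKM in controls and 5.97 to 6.29 FPKM in cKO, while the Sox9 segment spans 9.76 to 11.8 FPKM in controls and 9.29 to 10.3 FPKM in cKO.

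Ratios within a library, which do not depend on how libraries are scaled, were used to compare changes between genes. In each of the 6 ratios computed, no cKO library overlapped a control library. The log2 ratio of Sox10 to Sox9 was -0.03, 0.06 and 0.13 in the controls and -1.17, -1.32 and -1.27 in cKO, in the order of replicate numbers. Relative to Sox9, Sox10 was therefore 2.47-fold lower in cKO. Sox10 was also 1.73-fold lower relative to Sox8, and Sox8 1.42-fold lower relative to Sox9. Sox10 was also compared with 3 of the precursor genes. It was 1.74-fold lower relative to Olig2, the factor that specifies the lineage, 1.93-fold lower relative to Pdgfra, the precursor growth factor receptor, and 1.51-fold lower relative to Cspg4, the precursor proteoglycan NG2. Each ratio had an exact two-sided permutation p = 0.1, the smallest possible for 3 against 3 mice, and 0.1 after Benjamini-Hochberg adjustment over the 6, so none can pass 0.05. These 3 genes had less negative log2 fold changes than Sox10. Gpr17, Neu4 and C1ql1, of the same lineage, had more negative ones (-2.48, -2.47 and -1.72), so ratios to them would run the other way. Among the 5 ratios of Sox10 computed, that to Cspg4 differed least, by -0.60 on the log2 scale. Exons of Pdgfra overlap those of other genes on the opposite strand, so its count is less certain.

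**Figure D3:**
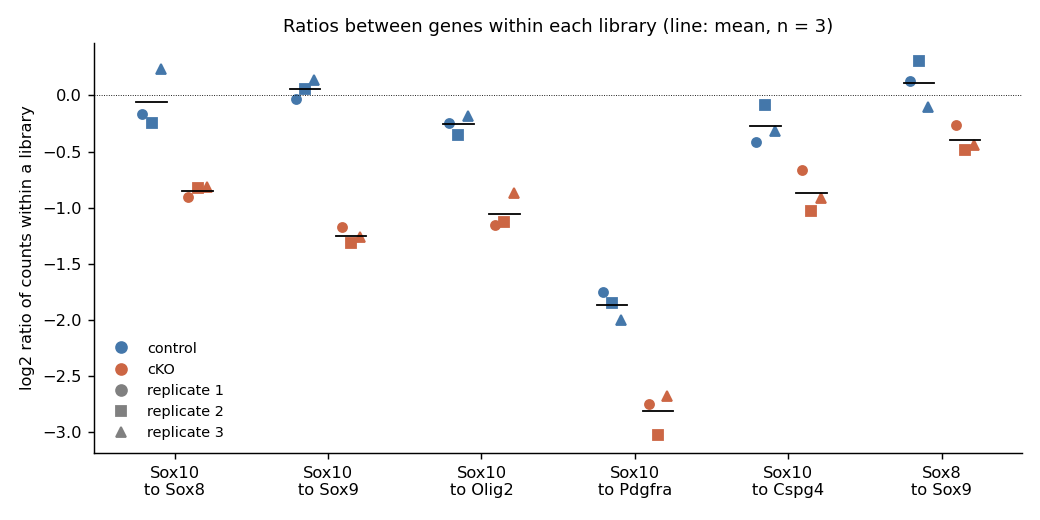
Log2 ratio of the counts of a pair of genes within each library, for the 6 pairs compared, with control in blue, cKO in orange, a marker shape for each replicate number and the mean of 3 libraries as a line. The groups are separate in each pair, with the widest gap for Sox10 to Sox9 (means 0.05 and -1.25).

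The SoxD genes, which counter SoxE activity in precursors, had small negative log2 fold changes and none was called. Sox6 (chromosome 7, 115470872 to 116038796) was at 52.4, 47.9 and 45.5 CPM in control replicates 1, 2 and 3 and at 44.2, 40.9 and 38.1 CPM in cKO replicates 1, 2 and 3. The cKO libraries lay below the controls, with cKO replicate 1 close to control replicate 3. Its log2 fold change was -0.24 (SE 0.081, 95% confidence interval -0.42 to -0.07, edgeR adjusted p = 0.571). Sox5 (chromosome 6, 143828425 to 144781977) was at 55.1, 52.7 and 58 CPM in controls and 46.9, 48.9 and 54.8 CPM in cKO in the order of replicate numbers, which overlapped. Its log2 fold change was -0.14 (adjusted p = 0.836). Its exons share 1330 bases with the antisense gene Sox5os1, which had at most 4 counts in any library. Sox13 (chromosome 1, 133382303 to 133424377) was at 10.7, 10.4 and 11.2 CPM in controls and at 11.3, 12.6 and 7.44 CPM in cKO. The lowest library was cKO replicate 3: the log2 fold change was -0.05 with all libraries (adjusted p = 0.975) and 0.15 without that one. It was also positive, at 0.06, by limma-voom with quality weights. Sox5 and Sox6 are also neuronal, in deep layer cortical neurons and interneurons. The 10 deep layer genes (median -0.08) and the 10 interneuron genes (median 0.09) listed for them held 0 called genes by edgeR, and 0 at an unadjusted p under 0.05.

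In the SoxC group, neither listed gene passed, and the estimate was negative for Sox4 and near 0 for Sox11. Sox4 (chromosome 13, 28948919 to 28953713) was at 53.6, 52 and 49.1 CPM in control replicates 1, 2 and 3 and at 37.9, 46.7 and 44.4 CPM in cKO replicates 1, 2 and 3. The groups did not overlap. The fit put Sox4 at -0.26 on the log2 scale (edgeR adjusted p = 0.55, with a 95% confidence interval of -0.44 to -0.08). Its exons share 2616 bases with Gm26735, a long noncoding RNA gene on the opposite strand, which had 1 count in control replicate 1 and 0 in the other 5 libraries. Sox11 (chromosome 12, 27334264 to 27342574) had the most reads of the 10 genes, at 130, 115 and 99.3 CPM in controls and 113, 115 and 113 CPM in cKO. Its cKO libraries fell inside the control range, and control replicate 3 was again the lowest control. The estimate was -0.01 on the log2 scale (adjusted p = 0.987, with a 95% confidence interval of -0.20 to 0.17), and 0.08 without control replicate 1. The 14 immature neuron genes, a cell state in which both are expressed, had a median of -0.04 and 0 called genes by edgeR, with 1 of them at an unadjusted p under 0.05 (Tubb2b, a tubulin of young neurons, at -0.17).

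The SoxB genes among the 10 were both lower in cKO without passing. Sox2 (chromosome 3, 34650405 to 34652461), a factor of neural stem cells and precursors, was at 73.1, 71.7 and 80.8 CPM in control replicates 1, 2 and 3 and at 65.1, 70.6 and 62 CPM in cKO replicates 1, 2 and 3. The groups did not overlap, though cKO replicate 2 was within 2 CPM of control replicate 2. Its log2 fold change was -0.19 (95% confidence interval -0.35 to -0.03, edgeR adjusted p = 0.707). The gene lies in an intron of Sox2ot, which is not analysed here. Sox3 (X chromosome, 60891366 to 60893430) was the least abundant of the 10, with 46 to 99 reads per library. It was at 4.04, 3.45 and 4.52 CPM in controls and at 3.06, 2.75 and 1.6 CPM in cKO, with cKO replicate 3 lowest and control replicate 1, the library with Y-linked reads, between the other controls. Its log2 fold change of -0.71 had an SE of 0.252 and was far from the threshold (95% confidence interval -1.26 to -0.17, adjusted p = 0.627). It was -0.47 without cKO replicate 3, and -0.43 by limma on log2(FPKM + 1). Among 14 neural stem and radial glial genes 0 were called by edgeR (median -0.14), and 4 had an unadjusted p under 0.05. They did not share a direction: Tnc, the matrix protein tenascin-C, was at -0.42, Vim, an intermediate filament gene, at 0.25, and Nes, which encodes nestin, at 0.55.

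**Figure D4:**
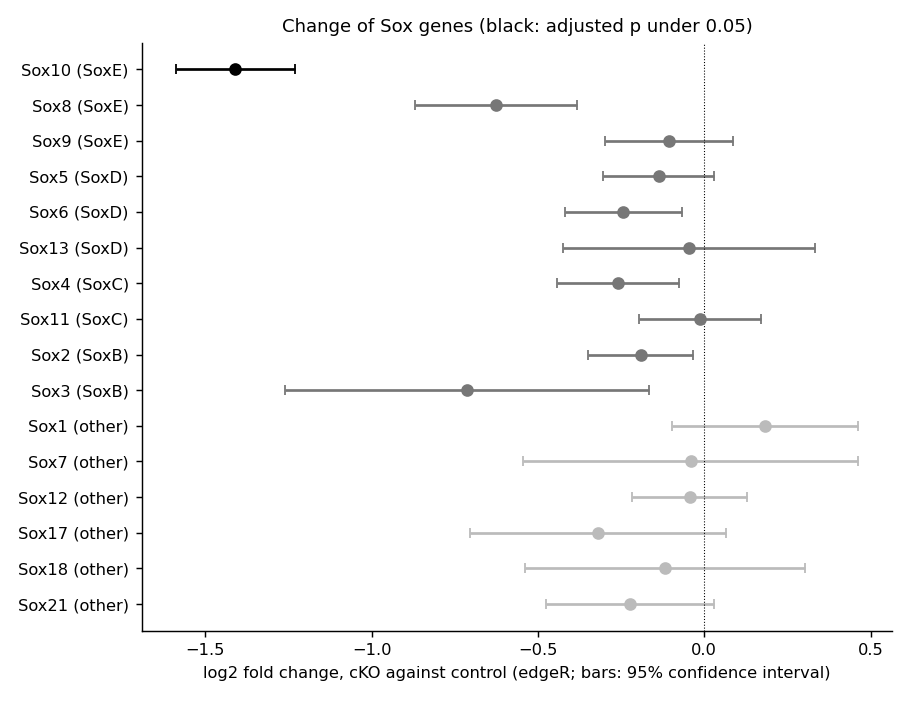
Log2 fold change of cKO against control with its 95% confidence interval for the 10 Sox genes and the 6 other Sox genes that had enough reads to test, black where the edgeR adjusted p is under 0.05. Sox10 alone is black, at -1.41, and the interval of Sox8 (-0.87 to -0.38) does not reach that of Sox10.

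Levels between genes can be compared per length. In control forebrain Sox2 was highest at 36.6 ± 2.03 FPKM (SD, n = 3 mice), followed by Sox10 at 16.5 ± 1.07, Sox8 at 15.7 ± 2.75 and Sox11 at 13.8 ± 1.92 FPKM. Sox10 and Sox8, and Sox8 and Sox11, had overlapping control ranges, so their order is not resolved. Sox4 at 10.8 ± 0.553 and Sox9 at 10.5 ± 1.19 FPKM also overlapped. Below them came Sox5 at 7.63 ± 0.296, Sox6 at 5.91 ± 0.462, Sox13 at 2.91 ± 0.0865 and Sox3 at 1.94 ± 0.242 FPKM, each apart from its neighbour in the order. In cKO Sox10 was at 6.18 ± 0.177 FPKM, Sox5 at 6.90 ± 0.456 FPKM, while Sox2 stayed highest at 32 ± 2.27 FPKM and Sox11 came next at 13.6 ± 0.25 FPKM. The order of Sox10 and Sox5 in cKO depends on the gene length used. The deposited values rest on 7243 bp for Sox5, 8227 bp for Sox6 and 2713 bp for Sox10, where the exons of all annotated transcripts span 14376, 14832 and 3051 bp. With the annotated lengths, cKO means were 5.49 ± 0.157 FPKM for Sox10 and 3.48 ± 0.229 FPKM for Sox5, so Sox10 lay above Sox5. Control means were then 3.84 ± 0.149 FPKM for Sox5 and 3.28 ± 0.256 FPKM for Sox6, and Sox8 at 15.1 ± 2.65 FPKM came before Sox10 at 14.7 ± 0.953 FPKM, with overlapping ranges. The share of Sox10 in the SoxE sum was 36.6% in controls and 22.1% in cKO on these lengths. Summed over the listed genes of each group on the deposited scale, the mean FPKM was 10.6% lower in cKO for SoxD, 8.21% for SoxC and 13.9% for SoxB. The remaining Sox genes, among them Sox1, Sox12 and Sox21 (log2 fold changes 0.18, -0.04 and -0.22, none called), are not in these sums. The sums did not overlap between the groups of mice for SoxD and SoxB (exact permutation p = 0.1 each) and overlapped for SoxC (exact permutation p = 0.3). The genes also differ in structure. In the annotation Sox4, Sox11, Sox2 and Sox3 have 1 exon, Sox9 has 3, coding transcripts of Sox8 and Sox10 have 2 to 5, and those of Sox5, Sox6 and Sox13 reach 15, 17 and 14.

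Outside the 10, the remaining Sox genes gave no call. Of the other 10 in the table, 6 had enough reads: Sox21, a SoxB relative, was at -0.22 (edgeR adjusted p = 0.835), Sox17, an endothelial factor, at -0.32 and Sox1, a neural progenitor factor, at 0.18. Their median was -0.08, and 0 had an unadjusted p under 0.05 by edgeR. Endothelial markers, whose cells express Sox17 and Sox18, had a median of 0.10 with 0 called and 0 at an unadjusted p under 0.05. Sox14, a gene of some thalamic and midbrain neurons, was at 2.19 CPM in control replicate 3 and at most 0.162 CPM elsewhere.

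Of the 24 genes listed as partners or regulators of Sox10, 2 fell and 0 rose, with 22 not passing. Over all tested genes, 0.207% were called lower and 0.059% higher. Olig2 was at 56.4, 53.1 and 50.7 CPM in control replicates 1, 2 and 3 and at 37.4, 37.5 and 30.2 CPM in cKO replicates 1, 2 and 3. It fell by 0.61 on the log2 scale (edgeR adjusted p = 0.0116), and the groups did not overlap. It did not pass without control replicate 1 (adjusted p = 0.0846). Zfp488, a zinc finger partner of Olig2, had a mean of 8.44 ± 2.01 CPM in controls and 2.65 ± 0.233 CPM in cKO (SD, n = 3 mice per group; log2 fold change -1.67, edgeR adjusted p = 0.00214). Nkx2-2, a homeodomain factor of early differentiation, had -1.06 (adjusted p = 0.0642), and Olig1, the relative of Olig2, had -0.58 (adjusted p = 0.268). Exons of both overlap genes on the opposite strand. The median of the list was -0.08, beside 0.00 over all genes. Smarca4, a chromatin remodelling ATPase, and Tcf4, a dimer partner of Olig proteins, were both at 0.01. Tcf12 at -0.175 (edgeR adjusted p = 0.768) and Chd7 at -0.192 (adjusted p = 0.785) were lower without being called. In the list, 18 genes had a negative log2 fold change and 6 a positive one. An unadjusted p under 0.05 by edgeR was found for 7 of the 24, beside 6.27% of all tested genes.

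Among listed oligodendroglial targets of Sox10, 8 of 21 tested fell and 0 rose, against 0.207% of all tested genes called lower. The list was drawn up with earlier results known, so the count is a description. Those called included Mbp, which encodes a protein of compact myelin, Myrf, the transcription factor of myelin genes, and Ugt8a, of galactolipid synthesis. Mag and Cnp, of non-compact myelin, and the factors Zfp488 and Olig2 were also among them. Myrf had a mean of 17.1 ± 2.48 CPM in controls and 5.38 ± 0.332 CPM in cKO (SD, n = 3 mice per group; log2 fold change -1.66, edgeR adjusted p = 1.18e-04), with no overlap. Mbp fell by 1.26 and Cnp by 0.52 on the log2 scale. Cnp exons overlap the gene Dnajc7 on the opposite strand. The other 13 did not pass. Cspg4 had -0.81 (adjusted p = 0.118) and Erbb3, a neuregulin receptor, -0.94 (adjusted p = 0.279), with ranges that did not overlap. Mog, a late myelin glycoprotein, had -0.00 and Aspa, an enzyme of mature oligodendrocytes, 0.02. The median of the list was -0.61, and 5 of the 21 had a more negative log2 fold change than Sox10. Mag did not pass without control replicate 1 or cKO replicate 1 or 2 (adjusted p from 0.0946 to 0.119), nor did Cnp in any fit that left out 1 library, except that without control replicate 2 (0.0889 to 0.191). Of 10 mature oligodendrocyte markers tested, a list that shares genes with the targets, 4 fell, and their summed level was 516.7 to 661.9 CPM in controls and 262.1 to 302.2 CPM in cKO.

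**Figure D5:**
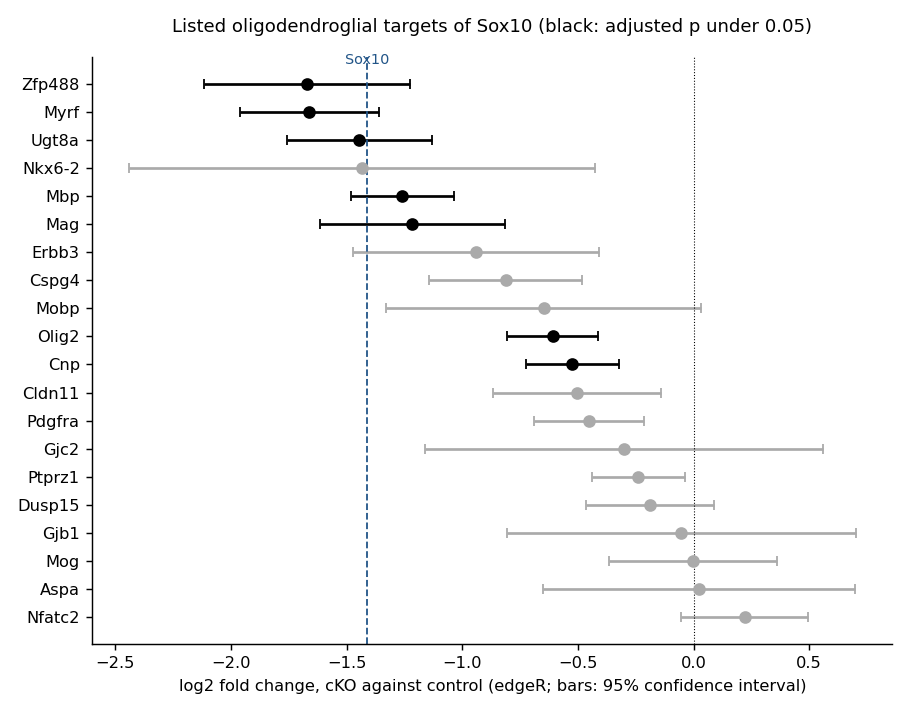
Log2 fold change of cKO against control with its 95% confidence interval for 20 listed targets of Sox10, ordered by size, black where the edgeR adjusted p is under 0.05; the dashed line is Sox10 at -1.41. Called genes span -1.67 (Zfp488) to -0.52 (Cnp), and Mog, Gjb1 and Aspa lie between -0.05 and 0.02.

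Of 11 precursor markers tested, 3 fell, beside 0.207% of all tested genes called lower. All 11 had a negative log2 fold change, with a median of -0.45, and 10 had an unadjusted p under 0.05 by edgeR. Over all tested genes, 6.27% had such a p-value, and 2.75% had it with a lower level in cKO. Gpr17, a receptor of committed precursors, fell by 2.48, Neu4, a sialidase, by 2.47 and C1ql1, a secreted C1q-like protein, by 1.72 on the log2 scale. Leaving out cKO replicate 1 ended the call of Gpr17 (adjusted p by edgeR 0.0655), and its exons overlap Lims2 on the opposite strand. Pdgfra had -0.45 (adjusted p = 0.253). For microglia, all 10 markers had a positive log2 fold change (median 0.47, summed level 300.7 to 449.8 CPM in controls and 462.6 to 566.3 CPM in cKO), 7 had an unadjusted p under 0.05 and 0 were called by edgeR. Cell cycle genes also had positive values (10 of 10, median 0.44, 0 called by edgeR, 2 at an unadjusted p under 0.05, summed level 44.1 to 72.6 CPM in controls and 68.5 to 92 CPM in cKO). The part of either in the levels of the Sox genes was not tested.

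The genes whose log2 levels followed Sox10 most closely over the 6 libraries, among 15240 genes with a mean of at least 1 CPM, were Ss18l2, Bcas1, Plxnb3, Myrf and Pigb (Pearson r from 0.993 to 0.996). The 6 points share the split into cKO and control. Bcas1, expressed in premyelinating oligodendrocytes, Plxnb3, a semaphorin receptor, and Myrf were called lower (log2 fold changes -2.25, -1.82 and -1.66), while Ss18l2 and Pigb differed by only -0.20 and -0.21 and were not. Exons of Bcas1 and Pigb overlap genes on the opposite strand. Closest to Sox8 were Matn4, a matrilin of precursor cells, Tmem256, S100a1, Pi16 and Cdo1 (r from 0.985 to 0.996). Of these S100a1, a calcium-binding protein gene, was called (log2 fold change -0.61, edgeR adjusted p = 0.0156), though leaving out any 1 library except control replicate 3 ended that call (0.0681 to 0.112). Closest to Sox9 were Rpusd3, Hnrnpll, St5, Stag1 and Map3k7 (r from 0.975 to 0.983), none of them called. Among the Sox genes themselves, Sox8 had r = 0.93 with Sox6 and 0.90 with Sox10 over the 6 libraries. When each library was taken relative to the mean of its group, these were 0.76 and 0.19.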

How the data were processed

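RNA from forebrains was selected with poly-T beads and made into directional libraries, per the labels' protocols. The deposited table of counts holds whole reads per Ensembl gene. The deposited FPKM equalled the count divided by 1 length per gene and by the library total (a length whole within 0.01 bp in 100% of values), so both tables hold the same measurement. The submitters' processing notes name CASAVA, STAR 2.5, HTSeq 0.6.1, DESeq and the build mm10. The strand setting is not given in the sources used here. Names and coordinates are from GENCODE M21 (mm10), which named 34490 of 35275 identifiers.

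Counts were tested with edgeR 4.0.16 in R 4.3.3: filterByExpr (minimum count 10, minimum total 15), TMM scaling, and the robust quasi-likelihood test of 3 cKO against 3 control mice, two-sided, with Benjamini-Hochberg adjustment over 16938 genes and a call at adjusted p under 0.05. Levels are TMM-normalised CPM. Intervals are at 95%. Likeness used log2 CPM with a prior count of 2. P-values set the difference between the groups against the spread between these libraries. The code was tested on simulated data, where the share of false calls was above the nominal rate of the threshold.

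The members and lists were chosen with earlier results of these data known. Named were the 10 members, genes of a list that were called or among its 3 smallest p, the 5 genes most like Sox10, Sox8 and Sox9, and genes overlapping a member. Other named genes, such as chromosomal neighbours and examples of levels near 0, were chosen after values were seen. Alternatives were other scalings, filters, DESeq2 1.42.0, limma 3.58.1 with voom weights or on FPKM (pseudocount 1 or 0.1, genes averaging 0.5 FPKM or more), a replicate block, and leaving out each library. For called genes that are no members, leaving out each library was added after seeing the data, as was rescaling FPKM to annotated exon lengths. Some listed genes are counted with their list but are not reported here by name.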

Additional observations from a re-analysis of the deposited data

How the results depend on the processing

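The number of Sox genes called was 2 (Sox10 and Sox8) in place of 1 with DESeq2 size factors in edgeR, no filter on low counts, DESeq2 or limma-voom with quality weights, and 1 to 2 when single libraries were left out. Over all genes, 61 were called lower and 50 higher with no filter, 59 and 49 with DESeq2, 20 and 4 by limma on log2(FPKM + 1) or log2(FPKM + 0.1), 14 and 3 on log2(FPKM + 1) without a filter, and 6 higher without robust dispersion; leaving out single libraries gave 24 to 44 lower and 4 to 19 higher. Over 18 alternatives, Sox10 was called each time, Sox8 5 times and the other 8 Sox genes never, which kept a negative sign except Sox13 (0.06 by limma-voom with quality weights, and -0.21 to 0.15 when single libraries were left out, the latter without cKO replicate 3) and Sox11 (-0.11 to 0.08, the latter without control replicate 1). When single libraries were left out, Sox9 ran from -0.16 to -0.01, Sox3 from -0.89 to -0.47, Sox5 from -0.21 to -0.09, Sox6 from -0.30 to -0.19, Sox4 from -0.33 to -0.18 and Sox2 from -0.25 to -0.14. Annotated in place of deposited gene lengths lowered the FPKM of Sox5 (control mean 3.84), Sox6 (3.28), Sox10 (14.7), Sox8 (15.1) and Sox13 (2.49). The 6 ratios kept their direction throughout. Same-numbered libraries did not deviate together (correlations 0.00, -0.05 and 0.01), which with 3 libraries per group cannot exclude pairs. With a replicate block in edgeR 1 Sox gene was called (Sox10, -1.41, adjusted p = 2.84e-04, while Sox8 had 0.0505), with 27 genes lower and 5 higher. The causes were not tested. With 46 to 99 reads, Sox3 is the gene that depth limits most.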
